A study of Mus musculus with 2 samples.

Results

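The aminoacyl-tRNA synthetases measured here were the 34 rows, of 38396 in the gene table, whose gene name is a single letter followed by "ars" or "ars2". By the mouse naming convention the letter stands for the amino acid, a name without the final 2 for the cytosolic enzyme, and a name with the final 2 for the mitochondrial enzyme, and 17 members fell in each set. HuR is an RNA-binding protein, the product of Elavl1, and the RNA pulled down with an antibody to it from the epididymal white fat of mice aged 6 weeks was sequenced. One library, labelled control, came from mice with floxed HuR alleles (HuRf/f), and the other, labelled HuR-FKO, from AdipoQ-Cre;HuRf/f littermates, so both carried the floxed alleles. AdipoQ-Cre is driven by the adiponectin promoter and is active in adipocytes, so blood, vessel, immune and stromal cells of the fat pad keep HuR. The sources used here do not say how many animals gave each library. With 1 library per genotype there was no replicate error, and every difference below describes these 2 libraries only. No input or IgG library was analysed, so a higher value cannot be told apart from more of that mRNA in the tissue, and fewer cells of a type cannot be told apart from less RNA per cell.

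Each synthetase joins 1 amino acid to its matching tRNAs, which makes it indispensable for protein synthesis in every cell. The cytosolic enzymes serve the ribosomes of the cytosol, and the mitochondrial enzymes, also encoded in the nucleus, serve the ribosomes that make the mitochondrial subunits of the respiratory chain. HuR is best known for binding AU-rich and U-rich stretches in the 3′ UTRs of mRNAs. Gars and Kars each encode both the cytosolic and the mitochondrial enzyme, and Qars has no mitochondrial partner because mitochondria make glutaminyl-tRNA by amidation. Glutamyl-prolyl-tRNA synthetase and the cytosolic phenylalanyl-tRNA synthetase carry other names (Eprs, Farsa, Farsb), so Ears2, Fars2 and Pars2 had no partner under this rule.

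The 3′ UTRs of Tars, Tars2, Rars2, Sars and Iars are shown first, because the largest shift between the 2 enzymes for 1 amino acid lay in the threonine pair and the only pair whose order turned was arginine. The pentamer ATTTA, the core of AU-rich elements, was searched on the strand of the mRNA, with overlapping matches counted. Each line gives a window of at most 30 bases, 5′ to 3′ in the DNA alphabet, with the pentamers in capitals. The sequences come from the GENCODE transcripts of the mm10 build (GRCm38). In Tars, which encodes cytosolic threonyl-tRNA synthetase, 9 pentamers lay in 1710 bases of 3′ UTR on the minus strand, and the 5 windows printed cover all 9. They are at chr15:11383829-11383857, chr15:11383660-11383688, chr15:11383301-11383329, chr15:11382907-11382935 and chr15:11382387-11382415, in the order of the lines. The middle window holds 4 pentamers that overlap in pairs.
Tars window 1: gttaagagaaccATTTAaagtattttgtt
Tars window 2: cgttaaaataaaATTTActaccaaagata
Tars window 3: aaagATTTATTTAtctATTTATTTAttat
Tars window 4: ggtcggcttggaATTTAtttctgtgtgta
Tars window 5: caggtgttaaATTTATTTActtgattatc
Tars2, at chr3:95743879-95743907 on the minus strand, and Rars2, at chr4:34660130-34660158 on the plus strand, each held 1 pentamer. Sars held 4, of which 2 overlap at chr3:108426451-108426479 on the minus strand, and Iars held 1, at chr13:49733974-49734002 on the plus strand.
Tars2: aactagcccatcATTTAtttcctgtcctt
Rars2: gttcagaatagaATTTAaagtattattct
Sars: aaagaggtatATTTATTTAgtaaaggctt
Iars: catcatgttcacATTTAaccttaaacacc

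Before the synthetases are compared, the libraries need describing. The targeted gene Elavl1 stood at 16.6 FPKM for the library labelled control and 26.1 in the library labelled HuR-FKO, a log2 ratio of -0.65 as deposited, which goes against a deletion. The direction depends on scaling, since the ratio was 1.02 under median centring, 1.32 under upper-quartile scaling and -2.01 as TPM. Exchanged labels and a precipitate that does not mirror the tissue's Elavl1 mRNA cannot be told apart here, either would change how each direction reads, and the libraries are therefore named by their labels. FPKM counts fragments per kilobase of a transcript and divides them by the mapped fragments of the library. Protein-coding genes lay mostly higher in the library labelled HuR-FKO. Among the 13562 that reached 0.1 FPKM in either library (64.2% of protein-coding rows), called detected below, the log2 ratio, control over HuR-FKO, had a median of -2.07, and 87.3% were higher in the library labelled HuR-FKO. Steps between low values gave about 11100000 fragments for the library labelled control and 18000000 for the other, estimates only. All 9 adipocyte markers were detected and higher in the library labelled HuR-FKO (summed 8785 and 29750 FPKM). The 6 macrophage markers summed to 13.3 and 47.0 FPKM with Cd68 at 0 in both, the 5 endothelial markers to 16.5 and 30.8, the 5 stromal markers (3 of 5 higher in the library labelled HuR-FKO) to 167 and 595, the 5 erythroid markers (4 of 5) to 866 and 1834, and the 5 T and B cell markers to 0.0733 and 5.04. Of 7 markers of epididymal and testis epithelium, 6 were at 0 in both libraries, and Prm1 stood at 0 and 7.73. These sums were higher in the library labelled HuR-FKO, as most synthetases and most genes were. Measured from the median ratio of all detected genes, all 5 endothelial and all 5 erythroid markers lay toward the library labelled control. So did 5 of 9 adipocyte, 4 of 5 detected macrophage and 3 of 5 stromal markers. The 2 detected T and B cell markers and Prm1 lay toward the library labelled HuR-FKO. The part of these cell types in the differences was not tested.

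Most synthetase mRNAs were several-fold greater in the library labelled HuR-FKO, much as other mRNAs were. Summed over all 34 members the level was 52.9 FPKM in the library labelled control and 231 in the library labelled HuR-FKO, a 4.36-fold difference. Of the 34, 31 were detected, and of these 25 were at least 2-fold greater in the library labelled HuR-FKO, where 74% of all genes so detected were. At least 2-fold greater in the library labelled control were 2 members, Tars and Hars2, against 6.5% of all detected genes. In either size of difference, 27 of the 31 were higher in the library labelled HuR-FKO, against 87.3%, and 4 in the library labelled control, against 12.7%. These shares lie near the background, so the count by itself says nothing particular about synthetases. The median log2 ratio of the 31 was -2.67, a 6.39-fold difference, beside -2.07 for all detected genes. Measured from that median, 11 members lay at least 2-fold further toward the library labelled HuR-FKO, where 26% of all genes did, and 7 at least 2-fold toward the library labelled control, where 27.3% did. Values under 0.1 FPKM were set to 0.1 in these counts. They include 3 members at 0 in the library labelled control only (Vars, Yars2 and Pars2), against 15.5% of detected genes, and 1 at 0 in the library labelled HuR-FKO only (Nars2), against 3.75%.

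**Figure D1:**
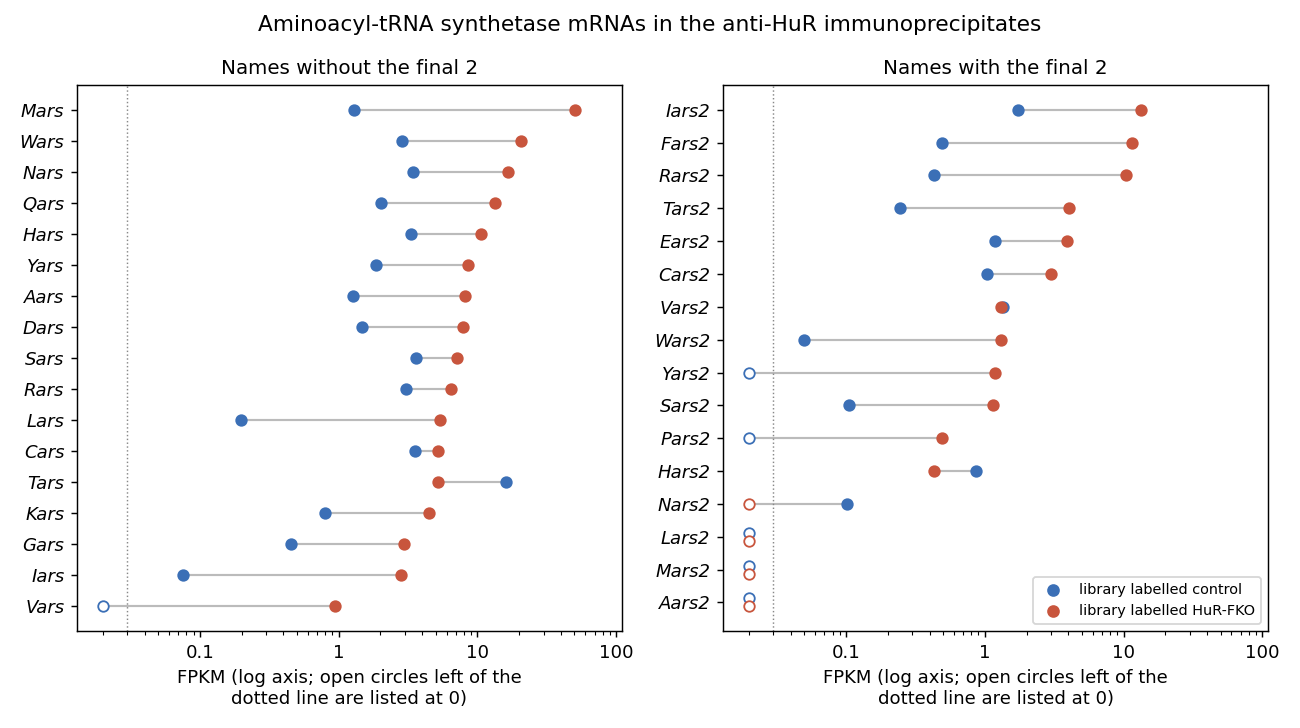
Level of 33 of the 34 synthetases in FPKM (log axis) in the library labelled control and the library labelled HuR-FKO, 1 point per library, names without and with the final 2 apart. Most pairs of points place the library labelled HuR-FKO to the right, and Tars, at 16 and 5.21 FPKM, runs the other way.

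At the filter of 5 FPKM in either library, 16 members passed, 13 without the final 2 and 3 with it (Iars2, Fars2 and Rars2). All 16 reached 5 FPKM in the library labelled HuR-FKO (25.5% of protein-coding rows did) and only Tars did so in the library labelled control (11.4%), so 15 of them passed through the library in which they were high. Of the 16, 13 were at least 2-fold greater in the library labelled HuR-FKO, where 82.4% of the 5571 genes past this filter were, and 1 was at least 2-fold greater in the library labelled control, where 3.21% were.

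Tars was the synthetase that stood furthest toward the library labelled control. Its level was 16 FPKM there and 5.21 in the library labelled HuR-FKO, 3.07-fold lower. In the library labelled control it was the most abundant member, with 30.2% of the family's summed FPKM, and in the library labelled HuR-FKO it held 2.26%. It ranked 580 of the 13562 detected genes from the control end of the ratios. Its percentile of level within each library was 95.3 in the one labelled control and 75 in the one labelled HuR-FKO, a comparison that does not depend on how the libraries are scaled. About 431 and 233 fragments lay behind the values, by the estimated depths.

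Mars, encoding cytosolic methionyl-tRNA synthetase, stood at the other end. It was at 1.30 FPKM for the library labelled control and 50.4 in the library labelled HuR-FKO, a 38.9-fold greater level. Its share of the family sum was 2.45% and 21.8%, and it was the most abundant member in the library labelled HuR-FKO. From the HuR-FKO end of the ratios it ranked 495, and its percentile of level was 76.1 in the library labelled control and 95.2 in the other. At the 3′ end of Mars, the longest overlap of 1 exon with an exon of Ddit3, on the opposite strand, was 68 bases. Ddit3, a stress-induced transcription factor, stood at 4.73 and 22.1 FPKM. The study's methods describe its RNA-seq libraries as strand-specific, but whether strand was used in counting these immunoprecipitates is not stated, so it is not known to which gene fragments from the shared bases were counted. Without Tars and Mars the other 32 members summed to 35.6 and 175 FPKM, 4.91-fold.

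Mars belongs to the cytosolic multisynthetase complex, in which several synthetases are held together on scaffold proteins. The 7 complex members of this family (Dars, Iars, Kars, Lars, Mars, Qars and Rars) were all at least 2-fold greater in the library labelled HuR-FKO, as 74% of all detected genes were, and their summed level was 8.95 and 90.7 FPKM, 10.1-fold higher there. The share of the family sum held by the complex was 16.9% in the library labelled control and 39.3% in the other. Without Mars the remaining 6 summed to 7.66 and 40.3 FPKM, 5.27-fold, and held 14.5% and 17.5% of the family sum. Among the 10 other names without the final 2 the sums were 36.3 and 85.7 FPKM, 2.36-fold, with 7 at least 2-fold greater in the library labelled HuR-FKO and 1, Tars, in the library labelled control (6.5% of all detected genes). Without Tars the other 9 summed to 20.3 and 80.5 FPKM, 3.97-fold, so the contrast between the sums rests largely on Mars and Tars. The medians of the log2 ratio were -2.73 for the complex and -2.23 for the others.

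Within the complex, 2 members had very few fragments in the library labelled control. Iars, for isoleucine, stood at 0.0754 and 2.80 FPKM, with about 3.50 and 214 estimated fragments. Lars, for leucine, stood at 0.198 and 5.33 FPKM, with about 7.99 and 355. Their folds are therefore imprecise even though the level in the library labelled HuR-FKO was well covered. Qars, for glutamine, was at 2.03 and 13.4 FPKM (6.62-fold). Kars, for lysine, was at 0.801 and 4.44 FPKM (5.54-fold), and Dars, for aspartate, at 1.48 and 7.92 FPKM (5.34-fold). Rars, for arginine, differed least in the complex, at 3.07 and 6.45 FPKM (2.1-fold).

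Outside the complex the tryptophan enzyme gene Wars, known as an interferon-induced synthetase, stood at 2.87 and 20.5 FPKM (7.16-fold). Gars, for glycine, was at 0.454 and 2.94 FPKM (6.48-fold), and Aars, for alanine, at 1.26 and 8.07 FPKM (6.39-fold). Gars and Kars, which supply both compartments, thus lay within the range of the purely cytosolic members. Nars, for asparagine, was at 3.42 and 16.6 FPKM (4.85-fold). Yars, for tyrosine, was at 1.87 and 8.48 FPKM (4.54-fold), and Hars, for histidine, at 3.29 and 10.6 FPKM (3.24-fold). The smallest differences toward the library labelled HuR-FKO were those of Sars, for serine, at 3.59 and 7.07 FPKM (1.97-fold), and Cars, for cysteine, at 3.55 and 5.24 FPKM (1.48-fold). Vars, for valine, was listed at 0 in the library labelled control and at 0.936 in the other, and no fold is given for it. The longest overlap of 1 Aars exon with an exon of Exosc6, on the same strand, was 1326 bases, so the level of Aars is uncertain.

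**Figure D2:**
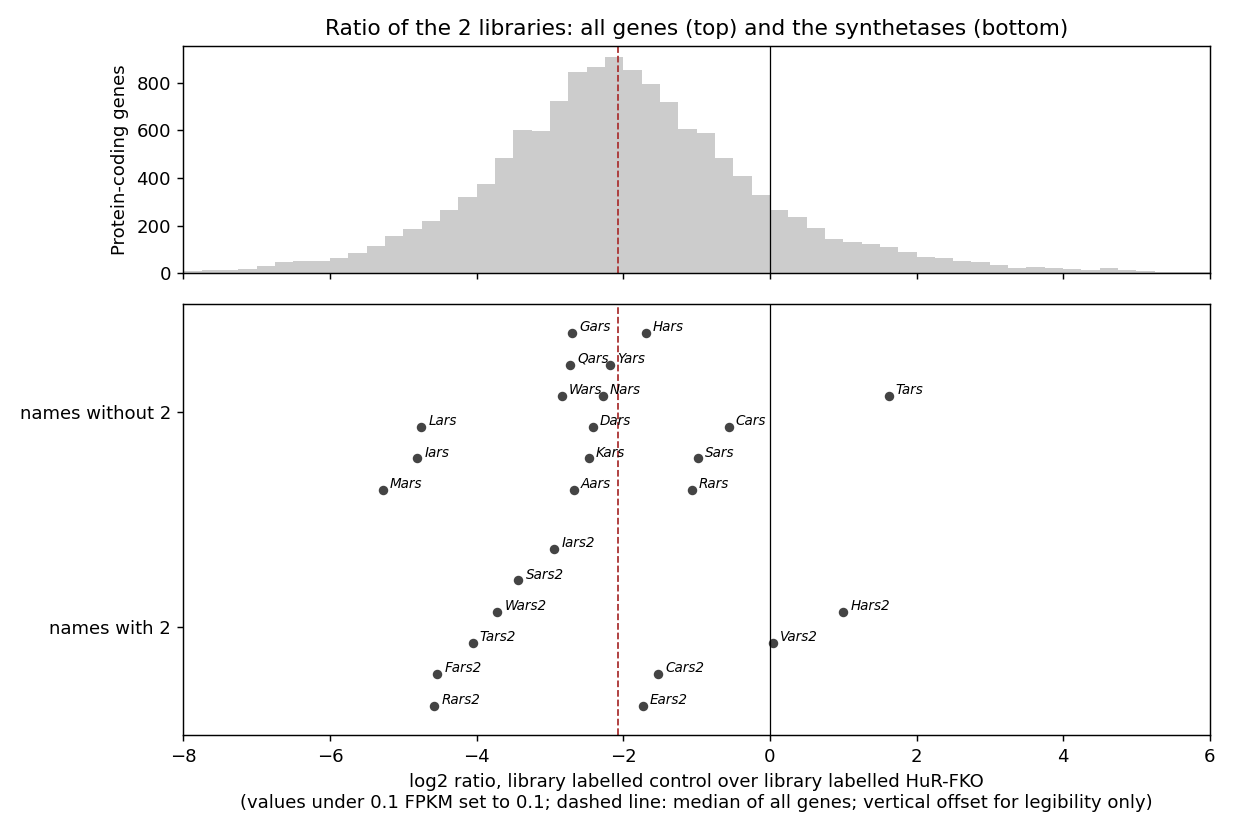
Log2 ratio of control over HuR-FKO for the synthetases (points, values under 0.1 FPKM set to 0.1) beside the distribution over all 13562 detected protein-coding genes, whose median is -2.07. Tars (1.62) and Hars2 (1.0) lie to the control side, and Mars (-5.28) at the far HuR-FKO side.

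The mitochondrial enzymes were less abundant than the cytosolic ones in both libraries. Their summed level was 7.66 FPKM in the library labelled control and 54.2 in the library labelled HuR-FKO, and their share of the family sum was 14.5% and 23.5%. The median percentile of level over all 17 was 52.2 and 57.0, against 79.9 and 78.9 for the names without the final 2. Fewer than 10 estimated fragments lay behind the value in the library labelled control for 12 of the 17, against 3 of the 17 names without the final 2. The median log2 ratio was -3.19 over the 14 detected names with the final 2 and -2.47 over the 17 without it. With no filter the first became -2.29, because Aars2, Lars2 and Mars2, at 0 in both libraries, then entered with a log2 ratio set to 0 by the floor. The difference between the sets thus turns with the treatment of genes that were not detected.

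Iars2, for isoleucine, was the most abundant mitochondrial member in both libraries, at 1.74 and 13.4 FPKM (7.70-fold). Fars2, for phenylalanine, stood at 0.491 and 11.4 FPKM, with about 8.16 and 319 estimated fragments. Rars2, for arginine, stood at 0.434 and 10.4 FPKM, with about 8.0 and 320. Fars2 and Rars2 held 0.93% and 0.82% of the family sum in the library labelled control and 4.95% and 4.50% in the library labelled HuR-FKO. Tars2, for threonine, was at 0.243 and 4.05 FPKM, with about 5.80 and 160 estimated fragments. Wars2, for tryptophan, was at 0.0500 and 1.31 FPKM, and Sars2, for serine, at 0.106 and 1.14. These last 2 rested on about 1.22 and 1.95 estimated fragments in the library labelled control. Ears2, for glutamate, at 1.18 and 3.91 FPKM (3.33-fold), and Cars2, for cysteine, at 1.04 and 3.0 FPKM (2.87-fold), lay closer to the median of all genes.

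Among the mitochondrial members, Hars2, Vars2 and Nars2 did not share that direction. Hars2, for histidine, was at 0.865 FPKM for the library labelled control and 0.432 in the library labelled HuR-FKO, 2.00-fold lower, with about 23.6 and 19.6 estimated fragments. Vars2, for valine, was at 1.35 and 1.32 FPKM, and Nars2, for asparagine, at 0.101 and 0. Yars2, for tyrosine, and Pars2, for proline, did share it, being at 0 in the library labelled control and at 1.18 and 0.490 in the other. Aars2, Lars2 and Mars2, for alanine, leucine and methionine, were listed at 0 in both libraries, which can be a failed estimate as well as a low level. Of all protein-coding rows, 30.4% were at 0 in both.

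Exons shared with another annotated gene were found for 13 members, and several of the mitochondrial ones are among them. The bases given for each are the longest overlap of any single pair of exons, not a total. Hars and Hars2 lie head to head on opposite strands and share 195 exon bases. Fars2 shares 115 bases with Lyrm4 (5.85 and 3.42 FPKM) and 501 with Nrn1 (0 in both libraries). Cars2 shares 215 bases with Naxd (10.3 and 38.5 FPKM), Ears2 89 with Ubfd1 (11.7 and 12.2), and Vars2 339 with Gm20483 (5.50 and 17.9). Iars2 shares 2034 bases with Rab3gap2, Nars2 284 with C230038L03Rik, Cars 211 with Gm15580 and Yars 30 with C77080. The levels of these members carry that uncertainty, and Rars2, Tars and Tars2 share no exon bases with another gene.

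The 2 enzymes for 1 amino acid can be compared inside a library, where its scaling cancels. Both names were present for 14 amino acids, and the name without the final 2 was higher in 12 of 14 pairs in the library labelled control and in 11 of 14 in the library labelled HuR-FKO. The threonine pair shifted most: Tars over Tars2 was 65.7 in the library labelled control and 1.29 in the other, a 51.1-fold difference between the ratios (5.68 on the log2 scale, and 3.48 with a pseudocount of 1). The arginine pair turned over, with Rars over Rars2 at 7.08 and 0.622 (a log2 difference of 3.51, and 2.12 with a pseudocount of 1). In both pairs the mitochondrial partner had under 10 estimated fragments in the library labelled control, so the size of these ratios is imprecise. The ratio also moved toward the mitochondrial enzyme for serine, from 33.9 in the library labelled control to 6.19 in the library labelled HuR-FKO, a log2 difference of 2.45 that was 0.14 with a pseudocount of 1. For cysteine, the only pair with all 4 values at 1 FPKM or more, it was 3.40 and 1.75.

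The histidine and isoleucine pairs behaved differently. Hars over Hars2 was 3.80 in the library labelled control and 24.7 in the library labelled HuR-FKO, the reverse of the 4 pairs above. Iars2 was more abundant than Iars in both libraries, with Iars over Iars2 at 0.0434 and 0.210. Vars2 was likewise above Vars in both. For tryptophan the ratio was 57.3 and 15.6 (Wars over Wars2), with a mitochondrial value under 0.1 FPKM in the library labelled control.

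**Figure D3:**
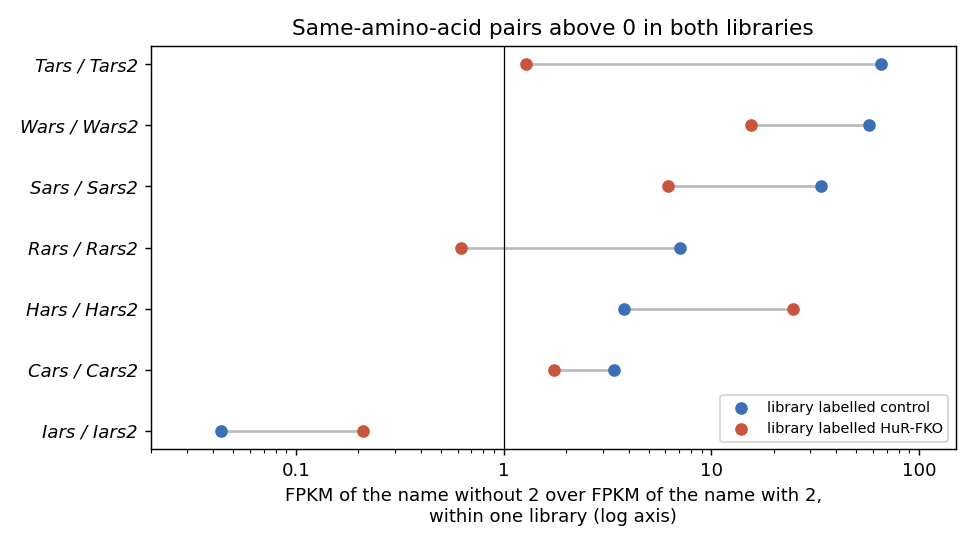
Ratio of the name without the final 2 over the name with it (log axis) within each library, for 7 of the amino acids whose 4 values were above 0. The threonine ratio runs from 65.7 in the library labelled control to 1.29 in the library labelled HuR-FKO, the arginine ratio crosses 1, and the histidine ratio runs the other way.

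**Figure D4:**
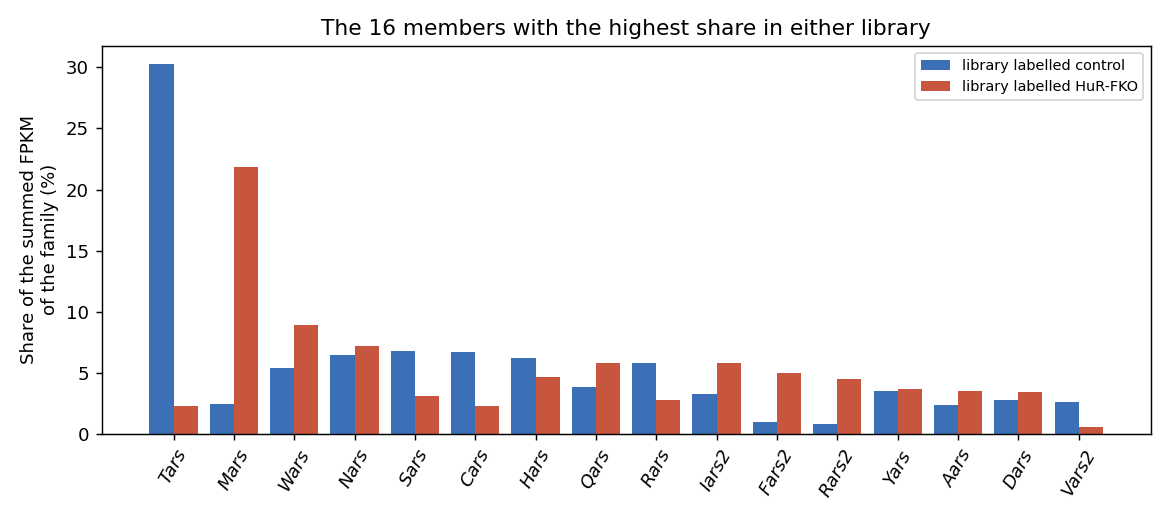
Share of the family's summed FPKM held by the 16 members with the highest share, in percent, as bars for each library. Tars held 30.2% in the library labelled control and 2.26% in the library labelled HuR-FKO, and Mars 2.45% and 21.8%.

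Grouped by the 2 structural classes of synthetases, which differ in the fold of the catalytic domain, the medians of the log2 ratio were -2.89 for the 16 detected class I members and -2.42 for the 15 of class II. Both classes held members far from their median, Mars in class I and Tars in class II.

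The pentamers printed above were then set beside the ratios. Of the 34 members, 18 held ATTTA in the longest annotated 3′ UTR, and of the 31 detected members 17 did, while 69.3% of the detected protein-coding genes with an annotated 3′ UTR did. This comparison is not matched for length. The median 3′ UTR was 642 bases for the 31 and 1145 over all genes, and genes with a shorter 3′ UTR held the pentamer less often. Tars, with 9, was above the median of 3 for genes with a 3′ UTR of like length (0.8 to 1.25 times), of which 87.1% held at least 1. Only 2 of the 9, windows 1 and 2, start inside the span that the table gives for Tars, so the gene model behind its FPKM was shorter than this 3′ UTR. Mars held none in 73 bases, a length at which 11.6% of genes held one, and Wars none in 1235 bases, where 79.8% did. Rars2 held 1 in 97 bases, where 15% did. Yars2 and Nars2 held 8 each, where the median for genes of like length was 3. Iars2 and Wars2 held 5 each, beside such medians of 4 and 5. Mars2, listed at 0 in both libraries, held 30 in 9470 bases, beside 16. Tars2 held 1 in 1911 bases, beside 3. The median log2 ratio was -2.70 for the 17 detected members with the pentamer and -2.38 for the 14 without it. Tars and Hars2, toward the control end, both held it, as did Iars and Lars far toward the HuR-FKO end, while Mars did not. The 2 pentamers of Lars lay outside the span that the table gives for it, and 17 of the 34 members held the pentamer inside theirs. A match is a description of letters, not of a HuR site.

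**Figure D5:**
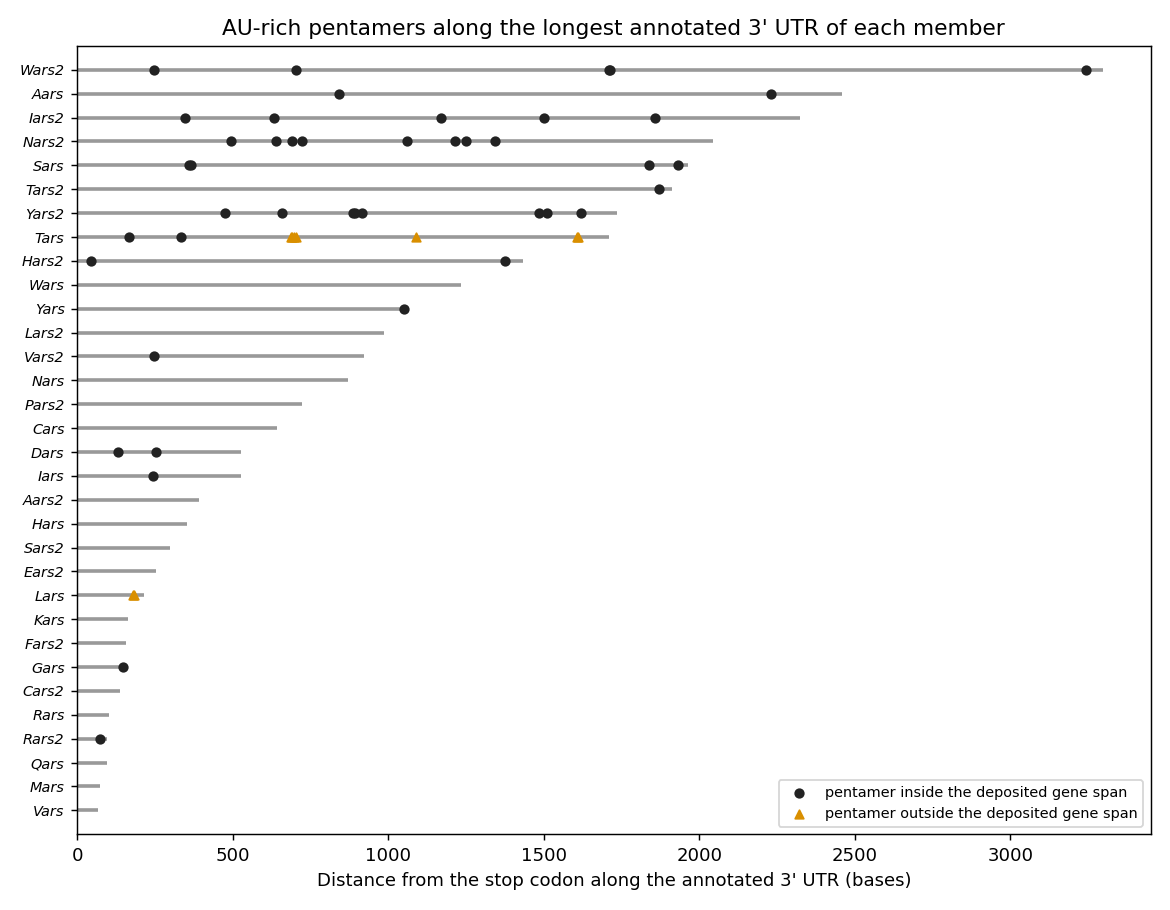
Position of each AU-rich pentamer (markers) along the longest annotated 3′ UTR (lines) of the members, Mars2 left out for its length and 1 other not shown, in bases from the stop codon, with triangles for pentamers outside the span that the table gives. The 9 pentamers of Tars are spread over 1710 bases, and Rars2 has 1 in 97 bases.

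Other genes that charge tRNAs or work with the synthetases were described in the same way. Of the 4 synthetase genes outside the naming rule, 3 were detected. All 3 were higher in the library labelled HuR-FKO, as 87.3% of all detected genes were. They were Eprs (1.83 and 9.86 FPKM), which encodes the glutamyl-prolyl enzyme, and Farsa (0.542 and 3.82) and Farsb (2.20 and 12.5), the subunits of the cytosolic phenylalanyl enzyme. Tarsl2, a threonyl-tRNA synthetase paralogue, was listed at 0 in both libraries. Of the scaffold genes of the complex, Eef1e1 was at 0.654 and 2.48 FPKM and Aimp2 at 0.0981 and 1.75, while Aimp1 was at 3.54 and 2.77, 1.28-fold greater in the library labelled control.

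Of the 4 genes for amidation and formylation of mitochondrial tRNAs, 3 were detected. All 3 were higher in the library labelled HuR-FKO, as 87.3% of all detected genes were. Only 1 was at least 2-fold greater there, where 74% of all detected genes were. That one was Mtfmt, which formylates the initiator methionyl-tRNA, at 0.225 and 6.09 FPKM (27.1-fold). The amidotransferase subunit genes Gatc (2.01 and 3.79 FPKM) and Gatb (8.96 and 10.2) differed less, and Qrsl1 was at 0 in both.

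Downstream of charging, 4 of 5 cytosolic elongation factor genes were at least 2-fold greater in the library labelled HuR-FKO and 1 in the library labelled control, beside 74% and 6.5% of all detected genes. Eef2, the translocase, was at 13.1 and 107 FPKM (8.15-fold). Eef1b2, part of the factor that recharges eEF1A with GTP, was at 168 and 67.4 FPKM, 2.5-fold lower in the library labelled HuR-FKO. Eef1g and Eef1d, other subunits of that factor, were at 23.8 and 105 FPKM and at 53.0 and 141, and Eef1a1, which brings charged tRNA to the ribosome, at 119 and 369. Of 9 mitochondrial translation factor genes, 7 were at least 2-fold greater in the library labelled HuR-FKO and 1 in the library labelled control, which is near the same background. Tufm, which brings charged tRNA to the mitochondrial ribosome, was at 1.28 and 7.05 FPKM, and Mrrf, the ribosome recycling factor, at 4.67 and 1.97. The medians of the log2 ratio were -1.63 for the cytosolic and -1.43 for the mitochondrial factors.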

How the data were processed

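Groups came from the genotype of each sample, 1 library each. The authors deposited FPKM values per gene for both libraries in 1 table. Per the submitters' processing notes, alignment and quantification used TopHat2 2.0.11 and Cufflinks 2.1.1 on mm10. The annotation used, the handling of duplicates and the strand setting are not given in the sources used here. Since FPKM is relative to the library total, very abundant RNAs lower all other values of a library.

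Members were taken by gene name. Members and lists were chosen with earlier results of these data known. Of the members 1 is counted in sums and counts but not reported here by itself. Every other member is named, and of each related list up to 4 genes with the largest log2 ratio where both values reached 0.1 FPKM, others being added after their values were seen. Values under 0.1 FPKM were set to 0.1 for log2 ratios, and folds use the deposited values. The filter was 5 FPKM in either library, and 0.1 FPKM, used for most counts, was added after the data were seen. No test was run and no replicate error can be given, as each group had 1 library.

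Biotypes, exons and 3′ UTRs came from GENCODE vM21 of the same build (36489 of 38396 rows matched, 21127 protein-coding). Start positions, which count from 0, were raised by 1. Depth is not given. It was estimated from the most frequent low step of FPKM times effective length, taken as 1 fragment. Effective length was transcript length less a fitted fragment length, 200 bases in the library labelled control and 150 in the other. At the step lay 101 of 1829 single-transcript genes in the library labelled control and 65 of 2419 in the other. About 2-fold below it lay 36 and 27 genes, so taking the step as 1 fragment is an assumption. Whole fragments were not recovered, and estimated fragments cover no counting error. Scripts were tested on simulated data. Python 3.11.15 with pandas 2.3.3 was used.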

Additional observations from a re-analysis of the deposited data

How the results depend on the processing

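At the filter of 5 FPKM the median log2 ratio was -2.28 over the 13 names without the final 2. It was -4.54 over the 3 names with it, a difference of 2.26. At least 2-fold greater were 13 members in the library labelled HuR-FKO and 1 in the library labelled control. Of all genes past this filter, 82.4% and 3.21% were. Every member but Tars passed only through the library labelled HuR-FKO, so the filter selected on the values compared here. The difference reversed to -0.18 with no filter, where the names with the final 2 had a median of -2.29 and the counts were 25 and 2. A filter of 1 FPKM gave -3.57, a difference of 1.12 and 23 members. The filter of 0.1 FPKM, added after seeing the data, gave -3.19, 0.72, 25 and 2, the counts beside 74% and 6.5% of all detected genes. The reversal with no filter thus came with Aars2, Lars2 and Mars2, listed at 0 in both libraries, whose log2 ratio the floor sets to 0. A filter of 20 FPKM left no name with the final 2, a median of -4.06 for the others, and counts of 2 and 0. These changes follow from how many low members enter. A pseudocount of 1 gave -2.99 for names with the final 2 and a difference of 1.14. Leaving out members with shared exons left 9, of which 7 were counted in the library labelled HuR-FKO, a similar share. Scaling moved the median of all genes past 5 FPKM from -2.22 to -0.55 (median centring), -0.24 (upper quartile) and -3.58 (TPM). The medians became -0.61 and -2.87 with counts of 8 and 2 under median centring. They were -0.30 and -2.57 with 4 and 2 under upper-quartile scaling, and -3.64 and -5.90 with 0 in the library labelled control under TPM. Shares over all genes were not computed under the scalings or at the other settings, so those counts say nothing particular about synthetases.

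Tars kept its direction under all 3 scalings, but its log2 ratio of 1.62 was 0.26 as TPM, and Mars kept the other direction. Reversed under median centring were Cars (1.10), Rars (0.60), Sars (0.69) and Cars2 (0.15), and under upper-quartile scaling these (1.41, 0.91, 1.0 and 0.46) with Hars (0.28) and Ears2 (0.24). TPM reversed Hars2 (-0.36) and Vars2 (-1.32). Each scaling adds 1 constant to every log2 ratio. Pseudocounts were tried on the 5 pairs at 0.1 FPKM or more in all 4 values, and none of these reversed. With a pseudocount of 1 the log2 difference for histidine was -1.82 against -2.70, and threonine, arginine and serine moved as given above. No paired analysis was possible because there was 1 library per genotype, and leaving out a replicate could not be tried for the same reason. Depth limits the names with the final 2 most, since 12 of 17 rest on fewer than 10 estimated fragments in the library labelled control.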

Other observations

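Several synthetase genes are known targets of ATF4, the transcription factor of the amino acid response, and of the 18 genes of a list of that pathway with a row in the table, 15 were detected. Of these, 13 were higher in the library labelled HuR-FKO, 10 of them at least 2-fold, and 2 were at least 2-fold greater in the library labelled control, beside 87.3%, 74% and 6.5% of all detected genes, with a median log2 ratio of -2.22 beside -2.07 for all detected genes. Atf4 itself stood at 7.72 FPKM for the library labelled control and 48.8 for the library labelled HuR-FKO. Slc7a11, the cystine transporter, was at 0.179 and 3.62 FPKM, and Slc3a2, its partner chain, at 0.776 and 6.98. Chac1, which degrades glutathione, ran the other way at 9.32 and 0.755 FPKM, 12.4-fold lower in the library labelled HuR-FKO. Trib3, a pseudokinase induced by ATF4, was at 0.297 FPKM and 0.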
